A study of Mus musculus with 8 samples.

Results

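The genes of the T cell receptor (TCR) complex and of the signaling steps next to it were examined in naive CD4 T cells and in the effector Th1, Th2 and Th17 cells made from them. The list holds 40 genes chosen by symbol, out of 23284 gene symbols in the expression tables. It was split by role into 4 CD3 and zeta chains, 6 coreceptors, costimulatory and other receptors around the TCR, and 4 proximal tyrosine kinases. The others were 12 adaptors and effector enzymes, 5 genes of the PKC-theta, BCL10-MALT1 and calcium entry steps, and 9 phosphatases and inhibitors. Each of the 40 was found as 1 row in every library, and each passed the filter for testing, a mean of at least 1 FPKM over the 8 libraries. FPKM, fragments per kilobase of transcript scaled to the mapped fragments, is a level per transcript length, so levels of different genes can be set side by side.

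RNA sequencing was performed on 8 libraries, 2 in each of 4 groups, and the comparisons address how naive and differentiated helper cells differ. All cells came from DO11.10 Tg mice, which carry a transgenic TCR for an ovalbumin (OVA) peptide. Naive cells were sorted from spleen as CD44low CD62Lhi CD4+ T cells. For effector cells, such cells were cultured for 6 days with OVA peptide and irradiated splenocytes depleted of T cells. The Th1 culture held IL-2 (30 U/ml), IL-12 (100 U/ml) and an antibody to IL-4 (1 µg/ml). For Th2, IL-2 (30 U/ml), IL-4 (100 U/ml) and an antibody to IFN-γ (10 µg/ml) were used. The Th17 culture held IL-6, IL-1β and IL-23 (10 ng/ml each) with antibodies to IL-4 and IFN-γ (10 µg/ml each). The labels do not say whether the replicates came from separate animals or cultures, so the p-values measure only the spread between these libraries, which may be technical.

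The TCR has no enzyme activity of its own. When it meets peptide on an MHC molecule, LCK, held on the CD4 coreceptor, phosphorylates the CD3 and zeta tails. ZAP-70 binds there and phosphorylates the adaptors LAT and SLP-76, on which phospholipase C gamma 1 is assembled, which leads to calcium entry, Ras activation and, through PKC-theta and the CARMA1-BCL10-MALT1 complex, NF-κB. CD28 and ICOS add costimulatory signals, and CSK, small adaptors and phosphatases such as SHP-1 restrain the pathway. The phosphatase CD45 instead removes the inhibitory phosphate from LCK.

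Depth, estimated from the width of the FPKM intervals, was 14463466 to 21058286 fragments per library and lowest in the naive ones. It is rough, as like FPKM gave unlike estimates for some genes. For *Ptprc* in Th1, 192 and 195 FPKM gave 26910 and 15634 fragments. The summed FPKM of 3 T cell markers, of which *Cd3e* and *Cd4* are also on the list, was 1180 to 1243 in naive, 1207 to 1252 in Th1, 926 to 953 in Th2 and 944 to 1027 in Th17 libraries. The markers of each helper lineage had their highest sum in the libraries of that name. CD8 T cell markers (2 of 2 genes) summed to 54.5 to 93.4 in naive and 8.94 to 13.0 in effector libraries. Nearly all of that was *Cd8b1*, while *Cd8a* was at 1.77 to 2.94 FPKM in naive and at most 0.268 in effector libraries. Markers of B cells (6 genes) summed to 2.50 to 12.9, with *Ms4a1*, *Pax5* and *Cd22* under 1 FPKM throughout. Myeloid markers (6 of 7 symbols found) summed to 10.2 to 14.5 in naive and Th1 libraries. In Th2 they summed to 25.4 to 34.4, and in Th17 to 19.3 to 19.5. Dendritic cell and NK cell markers summed to at most 2.34 and 0.823. Erythroid markers summed to 6.19 to 7.65 in naive libraries and at most 0.916 elsewhere. Neutrophil markers summed to at most 7.65, with *Mpo* and *Elane* at 2.46 to 4.89 FPKM in replicate 1 of each effector subset and at most 0.106 in replicate 2. The part of such cells in the results below was not tested, and in bulk RNA fewer cells of a type and less RNA per cell cannot be told apart.

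Most genes of the pathway were lower in effector cells than in naive cells, and a few were far higher. Differences are given as log2(FPKM + 1), effector minus naive, which understates the change of genes with low FPKM. Against the mean of the effector subsets, 6 of the 40 genes rose, 30 fell and 4 did not pass (limma, Benjamini-Hochberg adjusted p under 0.05). Among all 11198 genes tested, 36.8% rose and 36.8% fell. The median difference was -0.78 over the 40 genes and -0.012 over all tested genes. The genes that rose were *Icos*, *Malt1*, *Themis*, *Cd28*, *Ptpn22* and *Cd2*, and the largest falls were those of *Txk*, *Sit1*, *Pag1*, *Trat1*, *Lat* and *Prkcq*. In 26 genes (65%) all 6 effector libraries lay below both naive libraries, against 31.1% of tested genes. In 6 (15%) all effector libraries lay above both, against 30.5%. The 40 genes together made up 1.09% and 1.36% of the FPKM total in naive libraries and 0.724% to 0.931% in effector libraries.

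**Figure D1:**
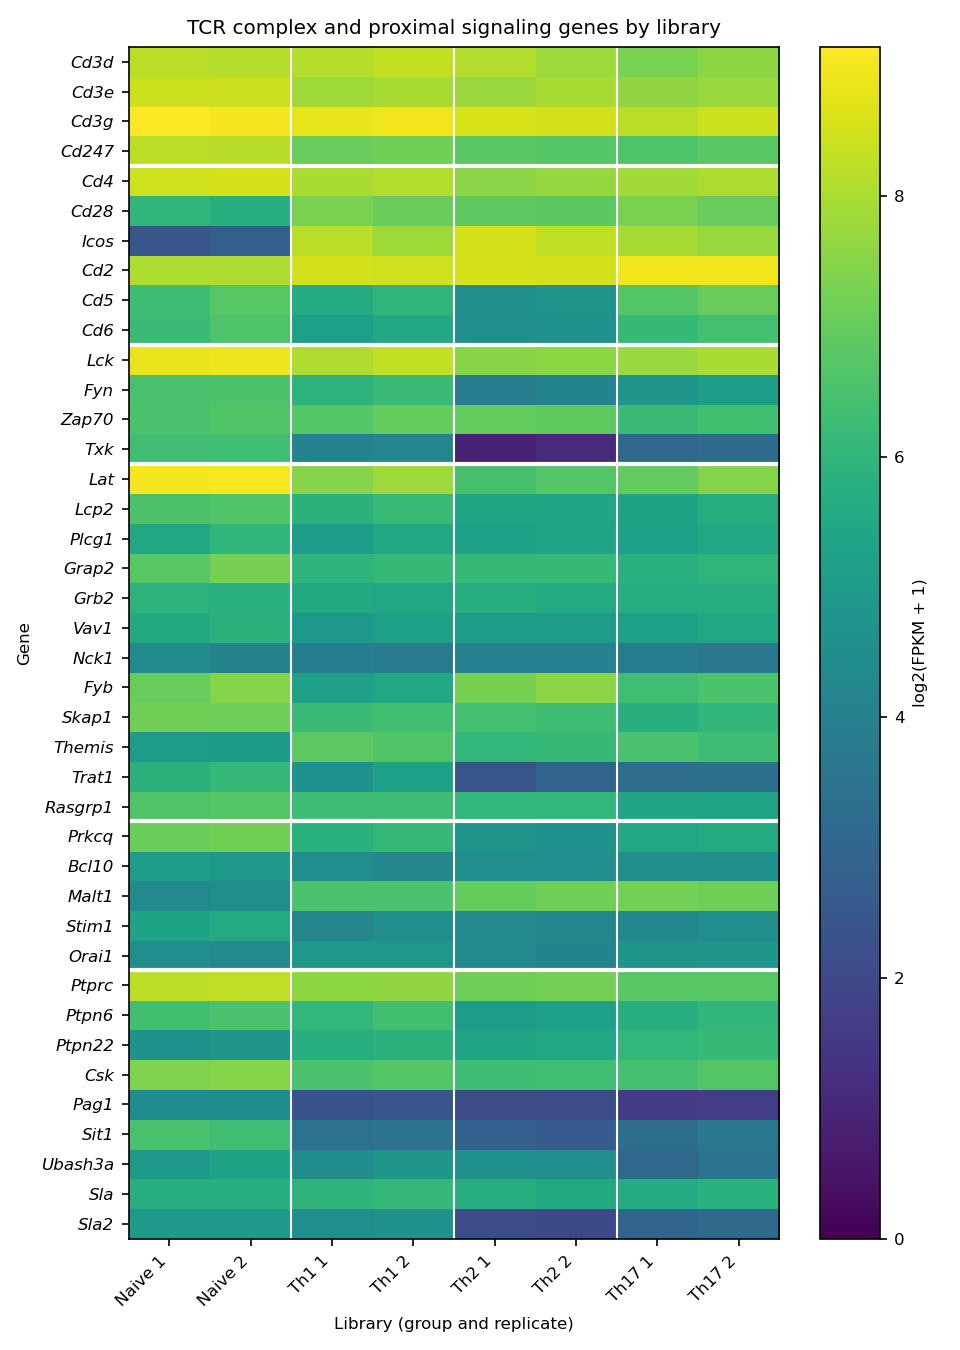
Level of each of the 40 genes (rows, grouped by role with white lines) in each of the 8 libraries (columns), as log2(FPKM + 1) on the colour scale. *Icos* is the dark row that turns bright in all 6 effector libraries, while *Txk*, *Pag1*, *Sit1* and *Sla2* darken there, *Txk* and *Sla2* most in Th2.

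Each subset was also set against the same naive libraries, so the 3 comparisons are not independent. In Th1 cells, 7 genes rose and 27 fell (33.8% and 33.5% of all tested genes), with a median difference of -0.53 against -0.014 over all genes. In Th2 cells, 7 rose and 26 fell (31.8% and 38.7%), with a median of -0.73 against -0.112. In Th17 cells, 7 rose and 26 fell (37.5% and 29.8%), with a median of -0.77 against 0.077. The scale of the libraries moves the all-gene values. With each library scaled to the same median, the all-gene medians were 0.017, 0.002 and 0.034, and the members' counts were 8 and 26, 7 and 25, and 7 and 28. With quantile normalization, the all-gene medians were -0.131, -0.127 and -0.115, and the counts were 6 and 29, 5 and 28, and 7 and 30. The share of rises among all calls was 55.7% as deposited and 44.2% with quantile normalization for Th17 against naive.

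**Figure D2:**
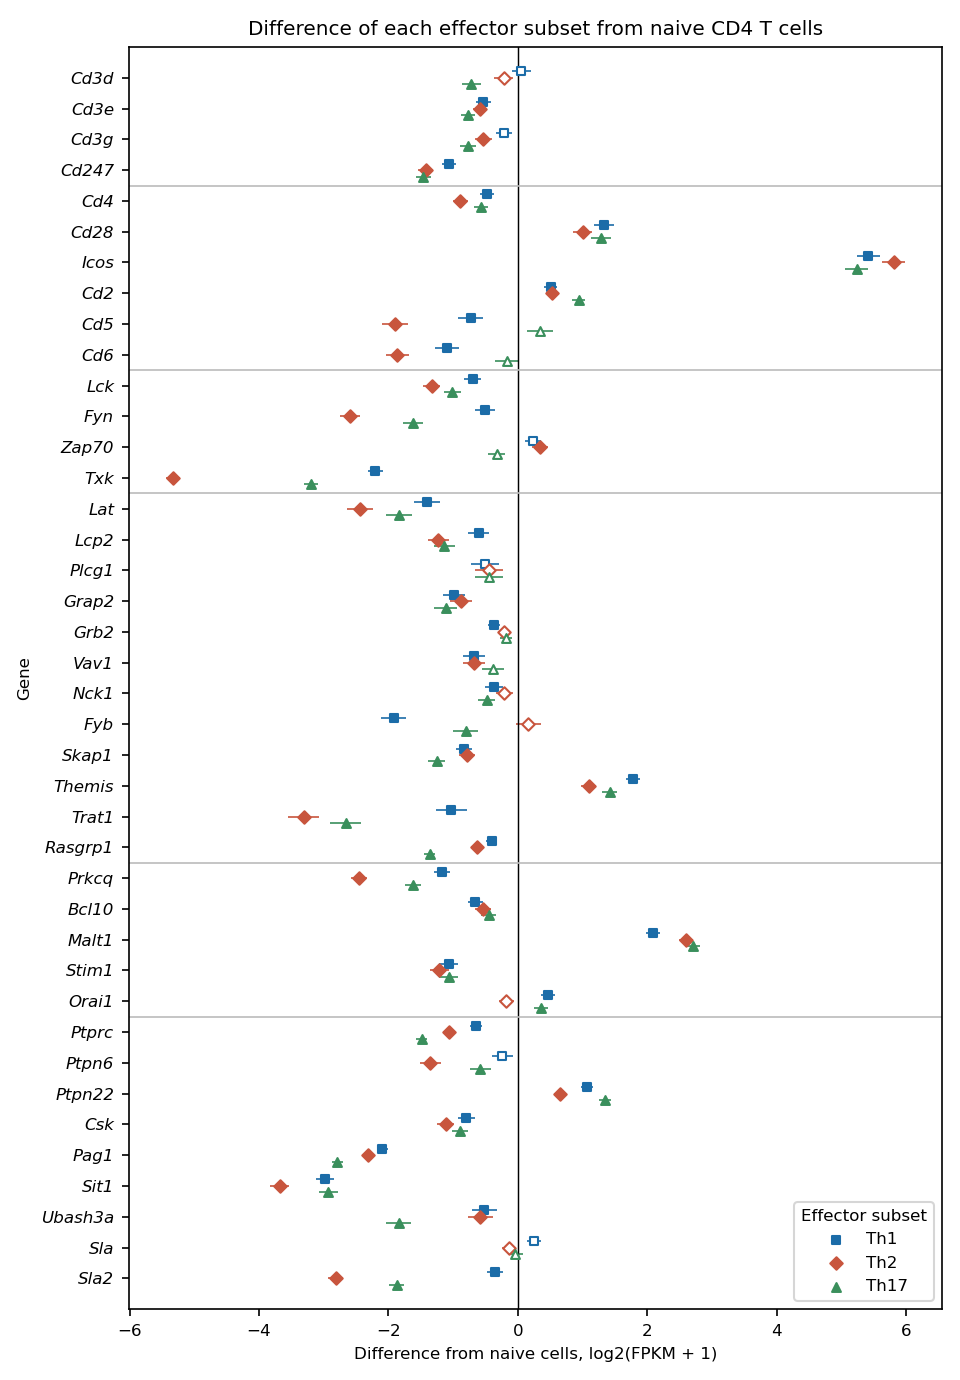
Difference of each effector subset from naive cells in log2(FPKM + 1) for the 40 genes, in the order of the level plot; squares are Th1, diamonds Th2 and triangles Th17, horizontal bars are 1 standard error, and filled symbols passed the test. *Icos* lies farthest to the right (5.23 to 5.80) and *Txk* in Th2 farthest to the left (-5.33).

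The upstream sequences of the genes that moved most show what lies before their start sites. RefSeq promoters (GRCm38.p6) were matched by symbol for 31 of the 40 genes, and *Cd4*, *Pag1*, *Skap1*, *Icos*, *Sla*, *Cd28*, *Cd2*, *Malt1* and *Cd6* had no entry. The 250 bases before the start are printed 5′ to 3′ on the strand of the gene for 3 of the genes with the largest falls and for 2 genes that rose. Capitals mark matches on either strand to 7 motifs: a RUNX core (TGTGGT), an ETS core (AGGAAG), the E-boxes CAGCTG and CAGGTG, a TCF/LEF core (CTTTGA), an AP-1 site (TGANTCA) and a GATA core (AGATAA). The windows are chr5:72752778-72753027 (minus strand) for *Txk*, chr4:43483710-43483959 (minus) for *Sit1*, chr16:48772063-48772312 (minus) for *Trat1*, chr10:28668145-28668394 (plus) for *Themis* and chr3:103860027-103860276 (plus) for *Ptpn22*.
Txk: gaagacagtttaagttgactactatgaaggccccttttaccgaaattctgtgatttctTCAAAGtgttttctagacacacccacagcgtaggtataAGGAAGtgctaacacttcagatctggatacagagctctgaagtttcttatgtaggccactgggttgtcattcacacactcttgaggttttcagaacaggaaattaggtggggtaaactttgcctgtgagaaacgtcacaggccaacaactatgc
Sit1: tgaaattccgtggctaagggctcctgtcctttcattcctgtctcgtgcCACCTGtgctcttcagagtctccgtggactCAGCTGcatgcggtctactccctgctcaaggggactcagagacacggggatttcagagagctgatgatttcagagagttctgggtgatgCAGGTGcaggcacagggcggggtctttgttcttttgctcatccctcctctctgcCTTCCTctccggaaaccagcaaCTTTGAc
Trat1: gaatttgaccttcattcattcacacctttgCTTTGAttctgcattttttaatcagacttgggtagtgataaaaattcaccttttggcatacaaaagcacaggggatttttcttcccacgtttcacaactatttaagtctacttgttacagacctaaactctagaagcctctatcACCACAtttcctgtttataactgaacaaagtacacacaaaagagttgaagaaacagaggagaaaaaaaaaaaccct
Themis: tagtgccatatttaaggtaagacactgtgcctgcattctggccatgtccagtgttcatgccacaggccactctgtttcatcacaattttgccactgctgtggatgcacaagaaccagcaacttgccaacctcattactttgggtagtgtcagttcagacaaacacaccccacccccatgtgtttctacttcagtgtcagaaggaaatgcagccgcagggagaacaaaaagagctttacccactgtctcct
Ptpn22: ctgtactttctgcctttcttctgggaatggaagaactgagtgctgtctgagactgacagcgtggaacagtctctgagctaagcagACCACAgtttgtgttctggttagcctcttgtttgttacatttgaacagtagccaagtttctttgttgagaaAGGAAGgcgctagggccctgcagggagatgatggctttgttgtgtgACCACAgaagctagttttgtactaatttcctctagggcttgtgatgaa
The *Txk* window held 1 ETS core and 1 TCF/LEF core, the *Trat1* window 1 RUNX core and 1 TCF/LEF core, and the *Sit1* window 5 matches. *Ptpn22* held 2 RUNX cores and 1 ETS core, and *Themis* held none of the 7 letter strings. Over the 31 windows, the ETS core was in 18 (58.1%, against 29.5% of all 32817 RefSeq windows of that length), CAGGTG in 10 (32.3% against 17.2%) and the TCF/LEF core in 8 (25.8% against 13.8%). The RUNX core was in 4 (12.9% against 14%), CAGCTG in 4 (12.9% against 13%), the GATA core in 3 (9.68% against 9.99%) and the AP-1 site in 0 (against 6.75%). These are matches of letters and were not tested as sites.

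Among the chains that carry the signaling tails, the zeta chain gene *Cd247* fell the most, while the CD3 chains fell less or did not pass. *Cd247* (chr1:165788681-165871153, mm10, as are all positions below) was at 293 and 286 FPKM in naive, 129 and 147 in Th1, 98.0 and 111 in Th17, and 109.8 and 105 in Th2 libraries. All effector libraries lay below both naive ones, and the difference of the effector mean was -1.32 (SE 0.09, adjusted p = 1.4e-05). By the gene models used, 60.3% of its exon bases overlap other genes, 3007 of them *Pou2f1* on the opposite strand. *Cd3e*, which pairs with both other CD3 chains, was at 351 and 342 FPKM in naive and 196 to 248 in effector libraries, a fall of the mean by 0.63 (SE 0.09, adjusted p = 0.000655).

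*Cd3g* was the most abundant chain in every library, at 564 and 522 FPKM in naive, 449 and 489 in Th1, 293 and 344 in Th17, and 386 and 364 in Th2. It fell in Th2 (-0.53, SE 0.12, adjusted p = 0.00714) and Th17 (-0.77, SE 0.12, adjusted p = 0.00131), and the Th1 difference of -0.21 did not pass (adjusted p = 0.174). *Cd3d* was at 294 and 276 FPKM in naive, 278 and 314 in Th1, 157 and 189 in Th17, and 271 and 220.4 in Th2. The Th1 libraries overlapped the naive ones, the Th2 libraries lay below them, and only the Th17 fall passed (-0.72, SE 0.15, adjusted p = 0.00443). The Th2 difference was -0.22 (adjusted p = 0.227). The Th1 difference was 0.05 (adjusted p = 0.769), and it was -0.03 without Th1 replicate 2 and -0.30 with quantile normalization. For the effector mean the difference was -0.30 (adjusted p = 0.0634). *Cd3g* and *Cd3d* lie head to head on chromosome 9, with 1354 bases between their starts, and *Cd3e* lies 11.7 kb beyond *Cd3d*.

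The receptors around the TCR went different ways, with 3 of 6 rising and 3 falling against the effector mean (36.8% each among all tested genes). *Icos* (chr1:60977914-61000321), the inducible costimulator, was at 4.48 and 5.78 FPKM in naive, 289.7 and 230.4 in Th1, 245 and 213 in Th17, and 376 and 307 in Th2 libraries. Every effector library was far above both naive ones, and the Th1, Th17 and Th2 means were 50.7, 44.6 and 66.5 times the naive mean (effector mean difference 5.48, SE 0.14, adjusted p = 1.7e-07). *Cd28*, which lies 204.6 kb from *Icos* and is the constitutive costimulatory receptor, was at 63.7 and 52.2 FPKM in naive and 115 to 158 in effector libraries, a rise of 1.20 (SE 0.12, adjusted p = 9.93e-05). It was thus above *Icos* in both naive libraries and below it in all 6 effector libraries.

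*Cd2*, an adhesion and costimulatory receptor, was at 259 and 258 FPKM in naive, 379 and 355 in Th1, 497 and 494 in Th17, and 374 and 371 in Th2 libraries. The effector mean was higher by 0.66 (SE 0.08, adjusted p = 0.000246). Its rises in Th1 (0.50) and Th2 (0.53) did not pass with quantile normalization (0.13, adjusted p = 0.298, and 0.25, adjusted p = 0.0693). *Cd4* was at 358 and 373 FPKM in naive, 251 and 274 in Th1, 233 and 259 in Th17, and 187 and 207 in Th2, and the effector mean fell by 0.65 (SE 0.09, adjusted p = 0.00058) with no overlap between naive and effector libraries.

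*Cd5* and *Cd6*, related scavenger-receptor proteins that restrain TCR signaling and whose genes lie 50.4 kb apart on chromosome 19, split the subsets. *Cd5* was at 78.6 and 107 FPKM in naive, 48.3 and 62.1 in Th1, 104 and 129.8 in Th17, and 22.3 and 25.4 in Th2 libraries. *Cd6* was at 74.6 and 97.3 FPKM in naive, 34.8 and 44.5 in Th1, 68.2 and 84.1 in Th17, and 21.9 and 23.5 in Th2. For both, the Th17 libraries overlapped the naive ones and the Th2 libraries were lowest. Against naive, *Cd5* fell in Th1 (-0.73, SE 0.20, adjusted p = 0.0145), a call that did not hold without naive replicate 2 (-0.51) or Th1 replicate 1 (-0.55). In Th2 it fell as well (-1.90, SE 0.20, adjusted p = 0.000135), and *Cd6* fell in Th2 (-1.86, SE 0.18, adjusted p = 9.01e-05) and Th1 (-1.09, SE 0.18, adjusted p = 0.00147). The Th17 differences of *Cd5* and *Cd6* were 0.34 (adjusted p = 0.174) and -0.17 (adjusted p = 0.438), the latter 0.02 without naive replicate 2. With the replicate number as a block, that of *Cd5* passed (adjusted p = 0.012). Th17 was above Th2 by 2.24 in *Cd5* (SE 0.20, adjusted p = 0.000305) and by 1.69 in *Cd6* (SE 0.18, adjusted p = 0.00063).

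**Figure D3:**
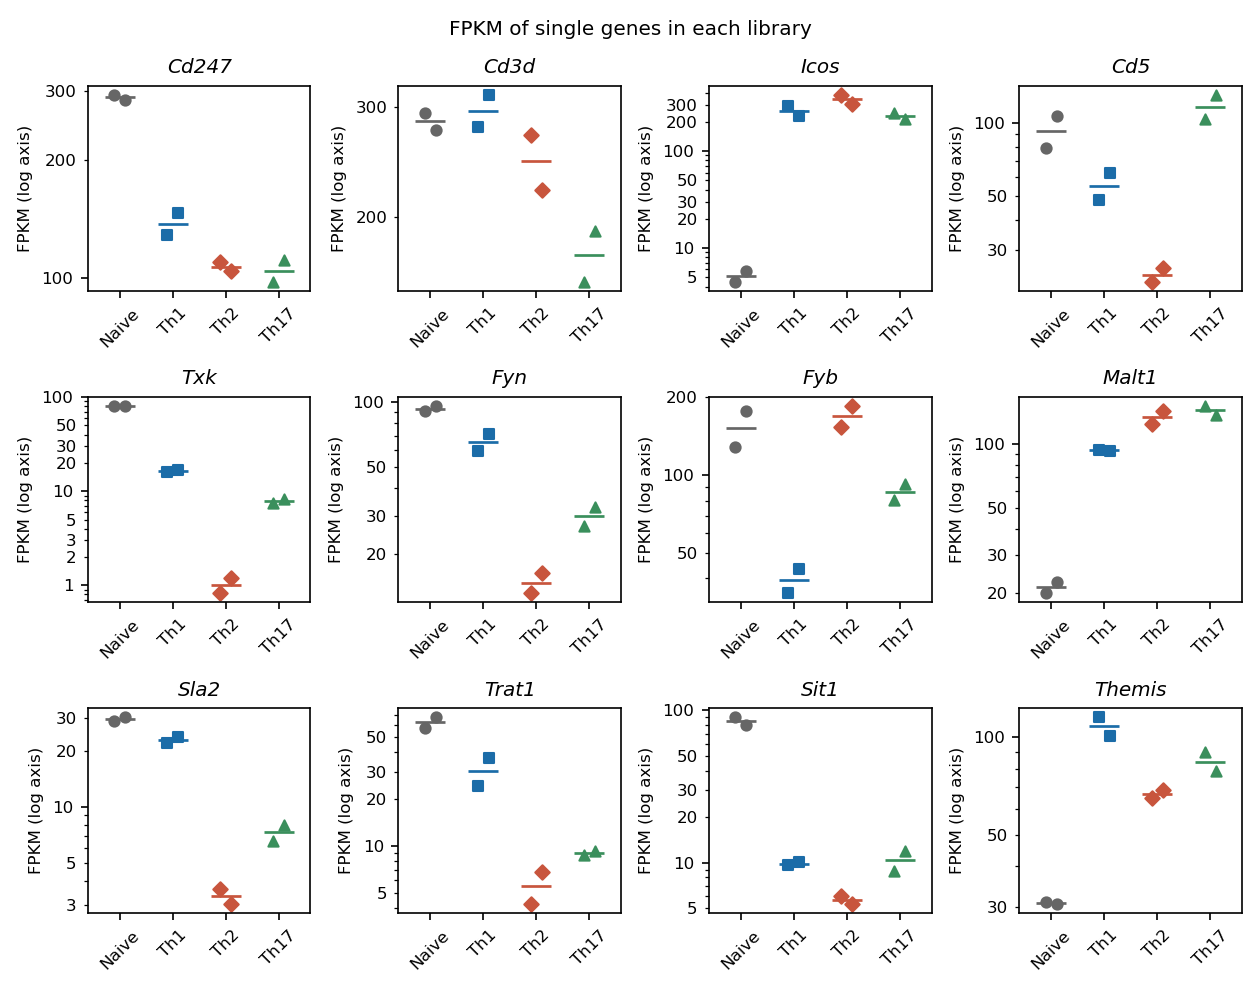
FPKM (log axis, with its own range in each panel) of 12 genes in the 2 libraries of each group; points are libraries and horizontal lines are group means. The naive points lie below the effector points for *Icos*, *Malt1* and *Themis*, and the Th2 points are lowest for *Cd5*, *Txk*, *Fyn*, *Sla2*, *Trat1* and *Sit1*.

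Of the kinases next to the receptor, *Lck*, *Fyn* and *Txk* fell and *Zap70* did not pass against the effector mean. *Txk* (chr5:72695978-72752773), a TEC family kinase whose promoter is printed above, was at 79.6 and 79.9 FPKM in naive, 16.1 and 17.0 in Th1, 7.45 and 8.20 in Th17, and 0.833 and 1.19 in Th2 libraries. The groups were fully apart, in the order naive, Th1, Th17, Th2, and the naive mean was 4.82, 10.2 and 79.0 times the Th1, Th17 and Th2 means. The differences from naive were -2.20 in Th1, -3.19 in Th17 and -5.33 in Th2 (each SE 0.11), and the adjusted p-values were 4.19e-06, 7.15e-07 and 1.35e-07. By the FPKM intervals, the Th2 values rest on roughly 51 and 71 fragments. The Th1 replicate 2 value was marked as a failed estimate by the quantification program.

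*Fyn*, the SRC family kinase that acts beside LCK, was at 90.9 and 95.8 FPKM in naive, 59.4 and 71.4 in Th1, 26.8 and 32.9 in Th17, and 13.2 and 16.2 in Th2 libraries. It showed the same order as *Txk* with no overlap between groups, and it fell by 2.59 in Th2 (SE 0.15, adjusted p = 7.66e-06) and by 1.62 in Th17 (SE 0.15, adjusted p = 8.33e-05). The Th1 fall of 0.51 (adjusted p = 0.0206) did not pass without naive replicate 1 (-0.55), naive replicate 2 (-0.48) or Th1 replicate 1 (-0.38), and the naive replicate 2 value was marked as a failed estimate. *Lck* was at 463 and 481 FPKM in naive, 266 and 317 in Th1, 215 and 253 in Th17, and 184 and 191 in Th2 libraries, and the effector mean fell by 1.01 (SE 0.11, adjusted p = 0.000122).

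*Zap70*, the kinase that docks on the phosphorylated tails, was at 92.7 and 101 FPKM in naive, 104 and 125 in Th1, 71.7 and 82.3 in Th17, and 125 and 121 in Th2 libraries. The difference of the effector mean was 0.08 (SE 0.10, adjusted p = 0.498), and it was -0.12 with quantile normalization. In Th2 alone *Zap70* rose by 0.34 (SE 0.13, adjusted p = 0.0462). That rise did not pass with quantile normalization (0.26, adjusted p = 0.0734), nor without either naive library (0.28 and 0.40), either Th2 library (0.31 and 0.37) or either Th17 library (0.34 in both). The Th17 libraries were below all others, and Th17 differed from Th2 by -0.67 (SE 0.13, adjusted p = 0.0063).

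Of the 12 adaptors and effector enzymes, 11 fell against the effector mean and 1, *Themis*, rose (36.8% each among all tested genes). *Lat*, the membrane scaffold that ZAP-70 phosphorylates, was among the most abundant genes in naive cells, at 511 and 533 FPKM, and was at 176 and 220.4 in Th1, 121 and 175 in Th17, and 89.2 and 102 in Th2 libraries. The effector libraries all lay below the naive ones, and the mean fell by 1.89 (SE 0.16, adjusted p = 3.88e-05). *Trat1*, an adaptor bound to the TCR complex, was at 57.7 and 67.3 FPKM in naive, 24.4 and 36.7 in Th1, 8.74 and 9.31 in Th17, and 4.24 and 6.77 in Th2. Its groups did not overlap, and it fell by 3.31 in Th2 (SE 0.24, adjusted p = 2.14e-05), by 2.66 in Th17 (SE 0.24, adjusted p = 6.81e-05) and by 1.03 in Th1 (SE 0.24, adjusted p = 0.00737).

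*Fyb*, the adaptor ADAP that links the TCR to integrins, had a pattern of its own. It was at 129 and 177 FPKM in naive, 35.2 and 43.6 in Th1, 80.1 and 92.4 in Th17, and 154 and 185 in Th2 libraries. The Th2 and naive libraries overlapped, and the Th1 libraries were lowest. *Fyb* fell in Th1 (-1.92, SE 0.19, adjusted p = 0.000125), and the Th2 difference was 0.16 (adjusted p = 0.489) and -0.07 without naive replicate 1. *Skap1*, the partner of ADAP, was at 142 and 138 FPKM in naive and 52.5 to 83.9 in effector libraries, and its effector mean fell by 0.96 (SE 0.10, adjusted p = 0.000115).

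*Themis*, a protein known for setting the TCR response of thymocytes, was at 31.1 and 30.6 FPKM in naive, 115 and 101 in Th1, 89.7 and 78.4 in Th17, and 65.0 and 68.6 in Th2 libraries. Every effector library was above both naive ones, by 1.77 in Th1 (SE 0.11, adjusted p = 1.21e-05), 1.09 in Th2 (SE 0.11, adjusted p = 0.000111) and 1.41 in Th17 (SE 0.11, adjusted p = 3.2e-05). *Rasgrp1*, which activates Ras downstream of phospholipase C, was at 99.7 and 106 FPKM in naive, 77.1 and 78.1 in Th1, 39.0 and 39.6 in Th17, and 66.0 and 65.7 in Th2. Its replicates were close and its groups apart, and it fell by 1.37 in Th17 (SE 0.08, adjusted p = 9.83e-06).

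*Lcp2*, which encodes SLP-76, and *Grap2*, which encodes its partner GADS, fell by 0.99 (SE 0.13, adjusted p = 0.000354) and 1.00 (SE 0.14, adjusted p = 0.00058) against the effector mean. *Lcp2* was at 95.0 and 101 FPKM in naive and 38.3 to 71.2 in effector libraries, and *Grap2* was at 107 and 153 against 55.3 to 69.4. The remaining adaptors and enzymes moved less, and each of their calls missed the threshold without at least 1 library. For *Vav1*, an exchange factor for RAC (46.0 and 57.6 FPKM in naive, 28.5 to 44.0 in effector libraries), the effector mean fell by 0.58 (adjusted p = 0.00681), but by 0.42 without naive replicate 2, when it did not pass. *Plcg1*, the phospholipase (43.4 and 63.2 FPKM in naive, 31.4 to 42.3 in effector libraries), fell by 0.47 (adjusted p = 0.0457). It passed in none of the 3 subsets alone, and the fall was by 0.20 without naive replicate 2 (adjusted p = 0.374). The adaptor *Grb2* (58.5 and 56.5 FPKM in naive, 43.1 to 51.7 in effector libraries) fell by 0.26 (adjusted p = 0.0179), but did not pass without naive replicate 1 (-0.23) or naive replicate 2 (-0.28). *Nck1* (20.2 and 15.8 FPKM in naive, 11.5 to 15.6 in effector libraries) fell by 0.35 (adjusted p = 0.0243), and by 0.19 without naive replicate 1 (adjusted p = 0.212).

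In the branch that leads to NF-κB and calcium, *Prkcq* fell, *Malt1* rose and the store-operated calcium pair split. *Malt1*, the protease of the CARMA1-BCL10-MALT1 complex, was at 20.0 and 22.6 FPKM in naive, 93.9 and 92.8 in Th1, 150.4 and 137 in Th17, and 125 and 144 in Th2 libraries. All effector libraries were far above the naive ones, with Th1, Th17 and Th2 means 4.38, 6.76 and 6.29 times the naive mean (effector mean difference 2.46, SE 0.09, adjusted p = 7.32e-07). *Bcl10*, its partner, was at 34.3 and 28.9 FPKM in naive and 17.9 to 22.7 in effector libraries, a fall of 0.55 (SE 0.10, adjusted p = 0.00176). *Prkcq*, which encodes PKC-theta, was at 135 and 146 FPKM in naive, 56.7 and 66.6 in Th1, 42.1 and 47.6 in Th17, and 26.2 and 23.5 in Th2. Its groups did not overlap, with Th2 lowest, and the effector mean fell by 1.75 (SE 0.10, adjusted p = 5.22e-06).

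*Stim1*, the calcium sensor of the endoplasmic reticulum, was at 39.0 and 46.6 FPKM in naive and 17.0 to 22.0 in effector libraries, and fell by 1.12 (SE 0.12, adjusted p = 0.000125). *Orai1*, the channel it opens, was at 21.4 and 19.2 FPKM in naive, 28.2 and 28.3 in Th1, 25.5 and 26.9 in Th17, and 19.5 and 16.3 in Th2 libraries. The Th2 and naive libraries overlapped, and those of Th1 and Th17 lay above both. *Orai1* rose in Th1 (0.46, SE 0.11, adjusted p = 0.00859), while its effector mean difference of 0.21 did not pass (adjusted p = 0.069, and 0.0471 with the replicate block), nor did its Th2 difference of -0.18 (adjusted p = 0.187). Its Th17 rise of 0.35 (adjusted p = 0.0254) did not pass without naive replicate 2 (0.28), Th17 replicate 1 (0.39) or Th17 replicate 2 (0.32).

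Among the 9 phosphatases and inhibitors, 7 fell and *Ptpn22* rose against the effector mean (36.8% each among all tested genes). *Sla* did not pass. The CSK-anchoring adaptor gene *Pag1* and the transmembrane adaptor gene *Sit1* had the largest falls. *Pag1* was at 20.5 and 20.8 FPKM in naive, 3.90 and 4.26 in Th1, 2.10 and 2.17 in Th17, and 3.39 and 3.33 in Th2 libraries, and the effector mean fell by 2.40 (SE 0.07, adjusted p = 2.3e-07). *Sit1* was at 89.9 and 79.7 FPKM in naive, 9.63 and 10.1 in Th1, 8.78 and 11.9 in Th17, and 6.01 and 5.36 in Th2, and fell by 3.20 (SE 0.12, adjusted p = 6.81e-07). For both genes every effector library lay far below the naive ones. *Csk*, the kinase that PAG1 anchors and that turns LCK off, was at 166 and 179 FPKM in naive and 78.2 to 106 in effector libraries, a fall of 0.94 (SE 0.11, adjusted p = 0.000167).

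*Ptprc*, the CD45 phosphatase that removes the inhibitory phosphate from LCK, was at 303 and 305 FPKM in naive, 192 and 195 in Th1, 108 and 107 in Th17, and 140.0 and 150.3 in Th2 libraries. Its replicates were close, its groups did not overlap, and the effector mean fell by 1.07 (SE 0.07, adjusted p = 1.45e-05). *Ptpn22*, a phosphatase that works with CSK, was at 25.1 and 26.5 FPKM in naive, 53.0 and 57.7 in Th1, 65.9 and 68.7 in Th17, and 39.4 and 42.4 in Th2, a rise of 1.02 (SE 0.08, adjusted p = 1.91e-05) with the groups fully apart. *Ptpn6*, which encodes SHP-1, was at 82.5 and 92.5 FPKM in naive, 65.4 and 83.0 in Th1, 52.5 and 64.2 in Th17, and 31.2 and 36.2 in Th2. The Th1 and naive libraries overlapped (difference -0.24, adjusted p = 0.22, and 0.0275 with the replicate block), while *Ptpn6* fell in Th2 by 1.35 (SE 0.16, adjusted p = 0.000256).

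*Sla* and *Sla2* encode the related adaptors SLAP and SLAP2, which help remove TCR components from the surface. *Sla* was at 53.2 and 54.0 FPKM in naive and 46.1 to 67.2 in effector libraries, with a difference of 0.03 (SE 0.09, adjusted p = 0.805), which was -0.09 with quantile normalization. *Sla2* was at 28.7 and 30.1 FPKM in naive, 21.9 and 23.8 in Th1, 6.61 and 8.02 in Th17, and 3.63 and 3.04 in Th2 libraries. It fell by 2.81 in Th2 (SE 0.12, adjusted p = 1.59e-06) and by 1.88 in Th17 (SE 0.12, adjusted p = 1.15e-05), and 23.6% of its exon bases overlap *Rab5if* on the opposite strand. *Ubash3a*, which encodes STS-2, was at 30.0 and 39.0 FPKM in naive, 20.6 and 26.8 in Th1, 7.59 and 10.2 in Th17, and 23.8 and 21.4 in Th2. The Th17 libraries were lowest, and the fall there was by 1.84 (SE 0.19, adjusted p = 0.00015).

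Between the subsets, the pathway's genes were more often higher in Th1 than in Th2 cells than the reverse. In at least 1 of the 3 comparisons between subsets 30 of the 40 genes (75%) passed, against 59.9% of all tested genes. Th1 was above Th2 in 19 genes and below it in 2 (27.4% and 16.9% of all tested genes), with a median difference of 0.33 over the 40 genes against 0.108 over all. With libraries scaled to one median the counts were 18 and 2, and with quantile normalization 15 and 3. Over all tested genes they were 2545 and 2274, and 2421 and 2335. Without Th1 replicate 2 both counts were lower, and so were those over all tested genes. Th1 had the highest mean FPKM of the 3 subsets in 24 of the 40 genes, Th17 in 10 and Th2 in 6, and Th2 had the lowest in 21, Th17 in 13 and Th1 in 6. The largest Th1 over Th2 differences were those of *Txk* (3.13, SE 0.11, adjusted p = 3.77e-06), *Sla2* (2.46, SE 0.12, adjusted p = 1.43e-05), *Trat1* (2.28, SE 0.24, adjusted p = 0.000428) and *Fyn* (2.08, SE 0.15, adjusted p = 8.28e-05). The opposite one was *Fyb* (-2.08, SE 0.19, adjusted p = 0.000239).

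Th17 was above Th2 in 12 genes and below it in 9 (31.7% and 12% of all tested genes), and the median difference was 0.12 against 0.184 over all. *Txk* (2.14, SE 0.11, adjusted p = 2.86e-05), *Fyn* (0.97, SE 0.15, adjusted p = 0.00293) and *Ptpn22* (0.71, SE 0.09, adjusted p = 0.00146) were higher in Th17, as *Cd5* and *Cd6* were. *Ubash3a* (-1.26, SE 0.19, adjusted p = 0.00276) and *Rasgrp1* (-0.73, SE 0.08, adjusted p = 0.00086) were lower in Th17. With one median the counts were 10 and 11, and with quantile normalization 11 and 9. Of all calls in this comparison, 72.6% were rises as deposited, 53.3% with one median and 50.7% with quantile normalization. For Th1 against Th2 these shares were 61.8%, 52.8% and 50.9%.

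Th1 was above Th17 in 14 genes and below it in 5 (9.17% and 16% of all tested genes), with a median of 0.26 against -0.076. *Trat1* (1.63, SE 0.24, adjusted p = 0.0032), *Sla2* (1.52, SE 0.12, adjusted p = 0.000197), *Ubash3a* (1.32, SE 0.19, adjusted p = 0.00314), *Rasgrp1* (0.96, SE 0.08, adjusted p = 0.00031) and *Ptprc* (0.84, SE 0.09, adjusted p = 0.000827) were among those higher in Th1. The 5 that were lower in Th1 were *Cd2*, *Cd5*, *Cd6*, *Fyb* and *Malt1*, and each of them missed the threshold without at least 1 library. Both counts were lower without either Th1 library or either Th17 library, and so were those over all tested genes. With one median the counts were 18 and 5, and with quantile normalization 15 and 5. Rises made up 36.5% of all calls as deposited, 48.1% with one median and 49.7% with quantile normalization.

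**Figure D4:**
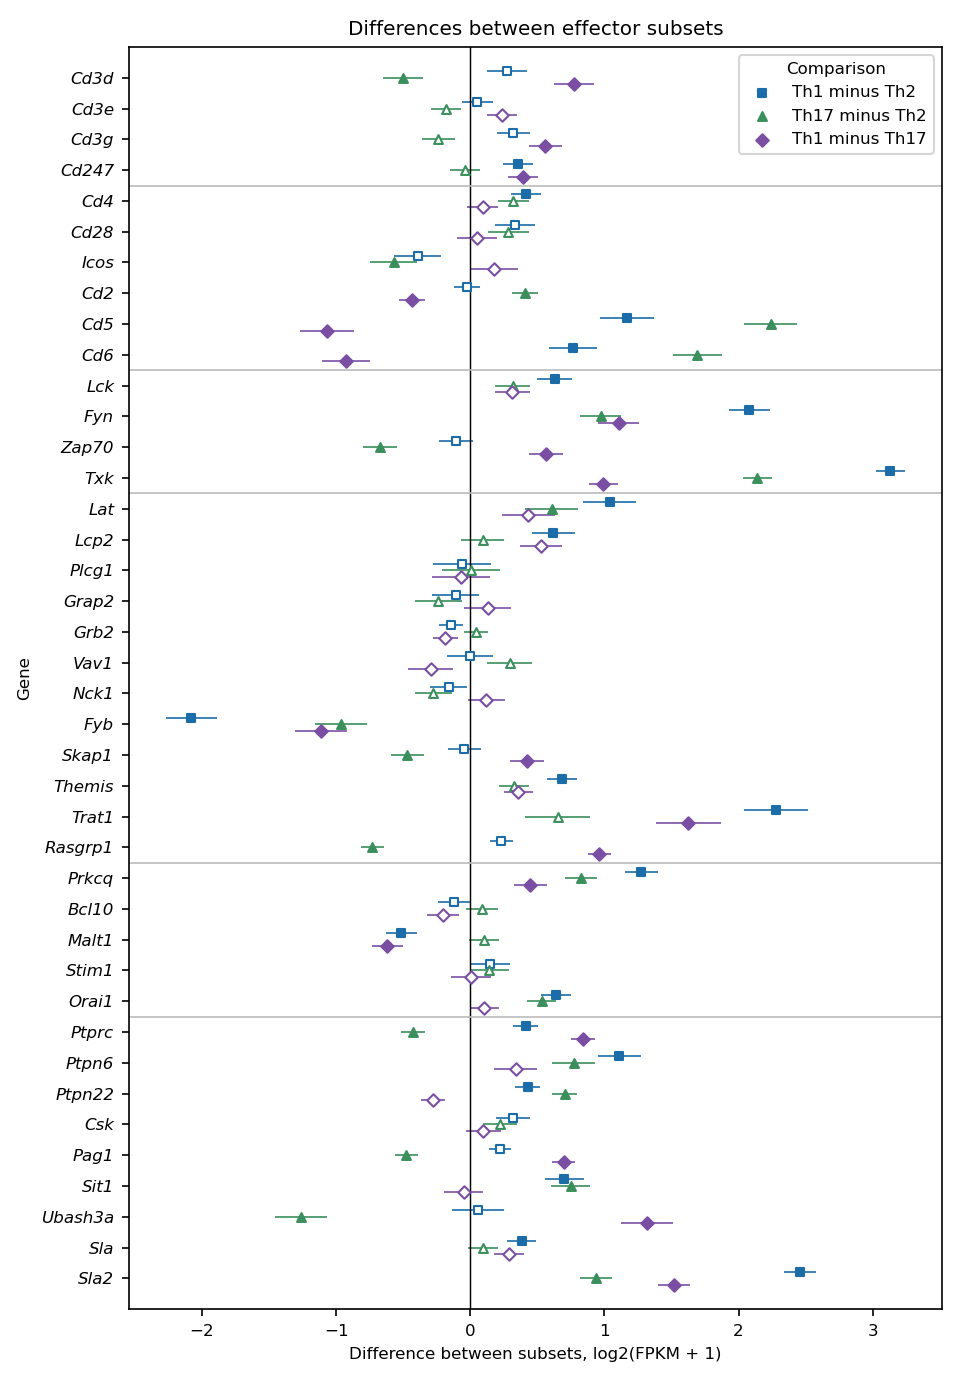
Differences between effector subsets in log2(FPKM + 1) for the 40 genes; squares are Th1 minus Th2, triangles Th17 minus Th2 and diamonds Th1 minus Th17, horizontal bars are 1 standard error, and filled symbols passed the test. *Txk* is farthest to the right in Th1 minus Th2 (3.13) and *Fyb* farthest to the left (-2.08), and *Cd5* is farthest to the right in Th17 minus Th2 (2.24).

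The balance between partner genes was taken as a ratio of FPKM within each library. Scaling a library by 1 factor leaves it unchanged, but quantile normalization can change it. The exon overlaps of *Cd247* and *Sla2* and the failed *Fyn* estimate in naive replicate 2, given above, enter the ratios below. Of 13 pairs computed, 6 were chosen after their values were seen, so the ratios are a description with no test. *Cd247* to *Cd3e* was 0.836 in both naive libraries and 0.424 to 0.591 in effector libraries. *Fyn* to *Lck* was 0.196 and 0.199 in naive, 0.223 and 0.225 in Th1, 0.125 and 0.13 in Th17, and 0.072 and 0.085 in Th2 libraries. Its order was thus Th1, naive, Th17, Th2, with no overlap. *Icos* to *Cd28* was 0.07 and 0.111 in naive libraries, 2.67 and 3.20 in Th2 and 1.55 to 1.84 in the other effector libraries. *Malt1* to *Bcl10* was 0.584 and 0.782 in naive and 4.39 to 6.70 in effector libraries. *Sla2* to *Sla* was 0.54 and 0.557 in naive libraries, 0.36 and 0.354 in Th1, 0.135 and 0.144 in Th17, and 0.07 and 0.066 in Th2. *Orai1* to *Stim1* was 0.413 and 0.549 in naive and 0.958 to 1.58 in effector libraries. In 6 of the 13 pairs, the effector ratios were all higher or all lower than the 2 naive ratios. These were the 5 above other than *Fyn* to *Lck*, and *Zap70* to *Lck*. In the remaining 7 the effector ratios lay on both sides or within the naive range. Of single tested genes, 30.5% had every effector value higher than the naive values, and 31.1% had every one lower. The share among pairs of other genes was not computed, so the count does not set these pairs apart.

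**Figure D5:**
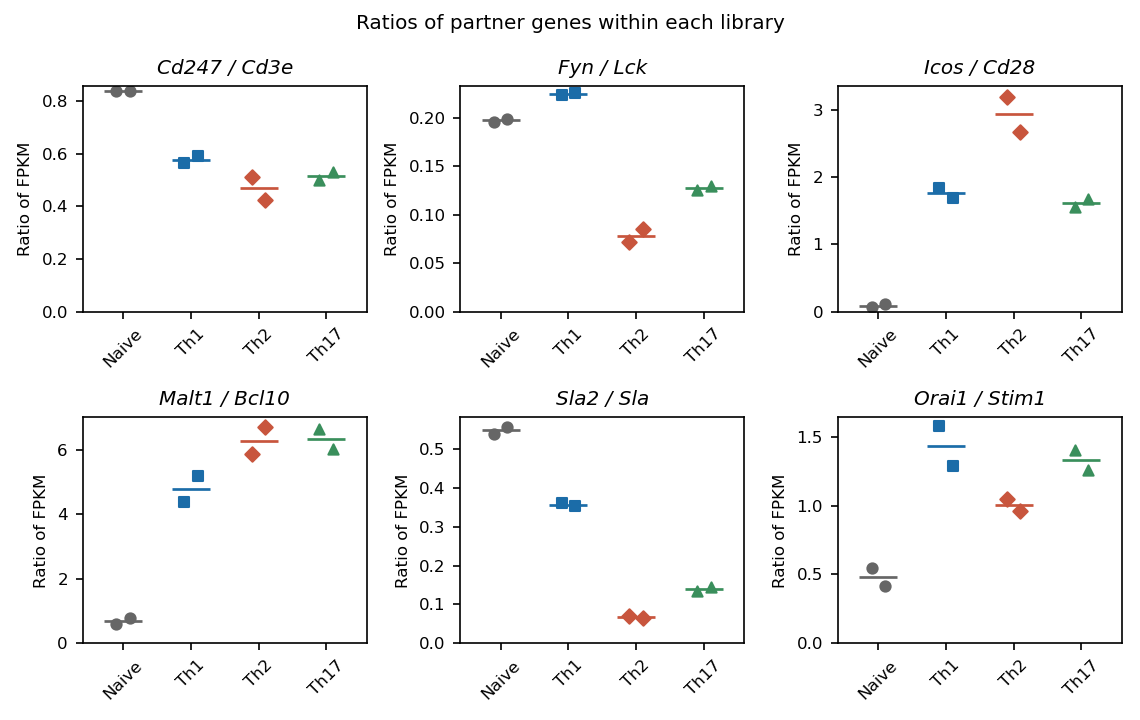
Ratio of the FPKM of 2 partner genes within each library (linear axes from 0) for 6 pairs; points are libraries and horizontal lines are group means. The naive points are lowest for *Icos* to *Cd28*, *Malt1* to *Bcl10* and *Orai1* to *Stim1*, and highest for *Cd247* to *Cd3e* and *Sla2* to *Sla*.

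Other genes of the pathway, from a second list of 60, moved in both directions with more falls than rises. Of the 56 found and tested, 13 rose and 34 fell against the effector mean (36.8% each among all tested genes), with a median difference of -0.44 against -0.012. The 4 largest falls were those of *Cd96*, a receptor of T and NK cells (-3.28, SE 0.13), the calcium channel gene *Orai2* (-2.93, SE 0.09), the adaptor gene *Lax1* (-2.79, SE 0.09) and *Tespa1* (-2.62, SE 0.13). The 4 largest rises were those of the receptor phosphatase gene *Ptprj* (2.83, SE 0.15), *Skap2* (1.82, SE 0.10), the adaptor gene *Gab2* (1.73, SE 0.13) and *Mapk3*, which encodes ERK1 (1.15, SE 0.07). *Ptprj* was at 0.358 and 0.301 FPKM in naive, 8.63 and 12.0 in Th1, 20.7 and 26.1 in Th17, and 1.84 and 2.33 in Th2 libraries, so that every effector library was above both naive ones. Between subsets, Th1 was above Th2 in 27 of these genes and below it in 7 (27.4% and 16.9% of all tested genes). Th17 was above Th2 in 27 and below it in 10 (31.7% and 12%), and Th1 was above Th17 in 9 and below it in 6 (9.17% and 16%).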

How the data were processed

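Deposited RNA sequencing values were used for 4 groups of T cells, naive, Th1, Th2 and Th17, with 2 libraries each, and with groups and replicate numbers taken from the sample labels. The authors aligned reads to mm10 with Bowtie 0.12.8 and TopHat 1.3.2 and deposited FPKM per gene from Cufflinks 2.0.2, normalized per transcript length and library size, with its interval and an estimation status. The versions come from the submitters' processing notes, and the gene annotation is not given in the sources used here. The labels name a stranded library kit and the methods an unstranded one, so reads of genes that overlap on opposite strands may be shared. For 3 of 320 values of the 40 genes (*Fyn* naive replicate 2, *Txk* Th1 replicate 2, *Vav1* Th2 replicate 2) the status was a failed estimate, and the listed FPKM was used.

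Rows sharing a symbol were summed (23746 rows, 23284 symbols). log2(FPKM + 1) was fitted for 11198 genes, those whose FPKM averaged 1 or more, with limma 3.58.1 in R 4.3.3 (lmFit, eBayes with a trend): one model of the 4 group means over all 8 libraries. Tests were two-sided and adjusted by the Benjamini-Hochberg method over all genes tested, at a threshold of 0.05. The same-numbered libraries' replicate differences correlated in every pair of groups (0.138 to 0.294 over tested genes), and the model was also run with that number as a block. The labels do not say what the numbers share. Depth, 14463466 to 21058286 fragments per library, was estimated from the FPKM intervals and is rough, as like FPKM gave unlike estimates for some genes. The 40 genes, the other lists, the pairs and the tests were chosen with earlier results of these data known. All 40 were named, and of the second pathway list the 4 largest rises and the 4 largest falls past the threshold. The second list's *Trac*, *Trbc1*, *Trbc2* and *Hras*, and the marker symbols *Adgre1* and *Ly6g*, were not analysed here. The *Adgre1* gene was analysed under its other symbol, *Emr1*. Tables and figures were made with Python 3.11.15, pandas 2.3.3, numpy 2.4.6 and matplotlib 3.10.9, and the test was tried on simulated data. The alternatives tried were no filter, a minimum mean FPKM of 5, a pseudocount of 0.1, median scaling, quantile normalization, only the compared groups in the fit, the replicate block, no trend, the largest row of a repeated symbol, and leaving out each library. Gene positions were read from the expression tables, overlaps from GENCODE gene models and promoters from RefSeq.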

Additional observations from a re-analysis of the deposited data

Results flagged for a closer look

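For 30 of the 40 genes, the effects in 2 effector subsets against the same naive cells differed by a test of the difference itself (75%, against 59.9% of all 11198 tested genes). The largest such difference of each gene, in log2(FPKM + 1), follows. Th1 minus Th2 was the largest for *Txk* (3.13), *Sla2* (2.46), *Trat1* (2.28), *Fyn* (2.08), *Fyb* (-2.08), *Prkcq* (1.28), *Ptpn6* (1.11), *Lat* (1.04), *Themis* (0.68), *Orai1* (0.64), *Lck* (0.63), *Lcp2* (0.62), *Cd4* (0.41) and *Sla* (0.38). Th17 minus Th2 was the largest for *Cd5* (2.24), *Cd6* (1.69), *Sit1* (0.75), *Ptpn22* (0.71), *Zap70* (-0.67), *Icos* (-0.57) and *Skap1* (-0.47). Th1 minus Th17 was the largest for *Ubash3a* (1.32), *Rasgrp1* (0.96), *Ptprc* (0.84), *Cd3d* (0.77), *Pag1* (0.70), *Malt1* (-0.62), *Cd3g* (0.56), *Cd2* (-0.43) and *Cd247* (0.40). Of these, *Cd4* and *Sla* did not pass with quantile normalization (0.26 each). *Cd247* missed the threshold whichever library was left out, and others, such as *Cd2* and *Cd3g*, missed it without some libraries. With 2 libraries a group, single libraries that stand apart from the rest of their group cannot be told.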

How the results depend on the processing

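Of the 280 differences (40 genes in 7 comparisons), 197 passed, and 144 of these passed with the same sign under every alternative run for them (17, but 1 fewer for the effector mean, which has no fit with only the compared groups). No difference that passed had another sign under an alternative. The numbers of genes past the threshold stayed within 1.5 times under every alternative that kept all libraries. Leaving out 1 library gave 7 to 7 rises and 19 to 26 falls for Th1 against naive, 6 to 7 and 24 to 27 for Th2, 6 to 7 and 23 to 27 for Th17, and 6 to 7 and 27 to 29 for the effector mean. It gave 10 to 19 and 1 to 2 for Th1 minus Th2, 8 to 12 and 6 to 9 for Th17 minus Th2, and 8 to 13 and 1 to 5 for Th1 minus Th17. At least 1 such omission ended 9 of 34 calls for Th1, 3 of 33 for Th2, 5 of 33 for Th17 and 4 of 36 for the effector mean, but 10 of 21, 9 of 21 and 11 of 19 between subsets. These fits had fewer samples, and a lone library was assumed to vary like the other groups. Over all tested genes, each omission also gave fewer calls in every comparison, both directions together. Of the differences that had not passed, the 12 named in the text changed sign in 8 values: *Cd3d* in Th1 minus naive (-0.297 with quantile normalization, -0.0316 to 0.139 over single omissions, the lowest without Th1 replicate 2), *Zap70* (-0.117) and *Sla* (-0.0862) in the effector mean with quantile normalization, *Sla* also without Th2 replicate 1 (-0.0005) and Th17 replicate 2 (-0.0044, with 0.056 the highest of such values), *Fyb* in Th2 minus naive without naive replicate 1 (-0.0721 to 0.388 over single omissions), and *Cd6* in Th17 minus naive without naive replicate 2 (-0.357 to 0.0212). The cause was not tested. Of the other 71 that had not passed, 27 passed under at least 1 alternative, and 51 of their values had another sign. With median scaling, 7 calls were lost, and with quantile normalization 9, among them *Cd247* in Th1 minus Th2 (0.26 and 0.17) and *Lat* in Th17 minus Th2 (0.43 and 0.48). With the replicate block, the pairing by number gave 7 rises and 29 falls for Th1, 7 and 28 for Th2, 8 and 29 for Th17, 7 and 30 for the effector mean, 22 and 2 for Th1 minus Th2, 18 and 9 for Th17 minus Th2, and 19 and 6 for Th1 minus Th17. It ended no call. Over all tested genes the block also raised the counts in every comparison. For Th17 minus Th2 they went from 3546 and 1339 to 4289 and 1680. For Th1 minus Th17 they went from 1027 and 1788 to 1382 and 2329. The Th2 values of *Txk*, *Trat1*, *Sit1* and *Sla2* rest on 51 to 183 fragments, estimated roughly from the FPKM intervals. An SD from 2 libraries is also a rough estimate.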
